A study of Mus musculus with 16 samples.

Results

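Brown adipose tissue from Ucp1-knockout (KO) mice was compared with that from wild-type (WT) mice, both infused with saline, in 8 of the 16 mRNA sequencing libraries of the study. Members were chosen by genotype and treatment labels alone: 4 KO saline and 4 WT saline libraries, with a value for 15350 genes in every library. All mice were of the C57BL/6J strain, and interscapular brown fat was taken after 3 days of infusion from an implanted Alzet minipump. The other 8 libraries, 4 WT and 4 KO, came from mice infused with isoproterenol, a beta-adrenergic agonist given at 60 mg per kg per day. Every mouse of the saline groups therefore also carried a pump, and the labels list no other allele or agent. The labels do not give age, sex, housing temperature, the part of Ucp1 that was deleted, or the strain in which the deletion was made. Nor do they state that each library is a separate animal. P-values therefore describe the spread between these libraries only, and that spread may be technical. For the saline samples the protocol text describes isoproterenol but the treatment field gives saline, and the field was followed.

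UCP1 is a carrier of the inner mitochondrial membrane that lets protons return to the matrix without driving ATP synthesis, so that respiration releases heat. Brown adipocytes make it in large amounts and raise it further when noradrenaline acts on their beta-adrenergic receptors. Mice without UCP1 keep brown fat with many mitochondria and lipid droplets, and other routes of heat production have been described in it, among them cycles of calcium, creatine and lipid. The saline groups serve as controls in the study, and their comparison asks what differs in brown fat without Ucp1 before the tissue is stimulated.

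The saline libraries held 9004515 to 14381797 reads over the listed genes, so that 1 read was worth 0.0708 to 0.115 CPM, the level of a gene scaled to a library of 1000000 reads. Correlations of log2 CPM ran from 0.949 to 0.977 between WT libraries, from 0.964 to 0.974 between KO libraries and from 0.938 to 0.979 between genotypes. The groups were therefore not set apart by correlation. The label of brown fat fitted its markers in both groups: the summed CPM of the pan-adipocyte list was 33722 to 38284 in WT and 34914 to 37798 in KO, and the brown fat marker Cidea had a mean of 3073 CPM in WT and 3327 CPM in KO. Skeletal muscle transcripts varied most: the summed CPM of 27 muscle markers ran from 299 to 13971 in WT and from 243 to 1443 in KO, and all 27 had a lower mean log2 level in KO with a median difference of -2.17, none of them called. The first principal component of the 8 libraries held 35.6% of the variance, and the genotypes overlapped along it. WT replicates 4 and 3, highest in muscle transcripts, lay at -62.8 and -35.5. Those lowest in them, KO replicates 4 and 1 and WT replicate 2, lay at 43.6, 43.3 and 25.4. KO replicates 2 and 3 and WT replicate 1 lay between, at -18.9, 8.09 and -3.20. On the second component, with 20.1% of the variance, KO replicate 3 lay at -50.4, and KO replicates 1, 2 and 4 at -24.4, 10.8 and 12.7. KO saline replicate 2 stood apart from the other KO libraries in its nearness to WT. It was the KO library nearest to the WT mean in 32.2% of all genes, against 21.04% to 24.7% for the others, so results that rest on it are given with and without it.

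Ucp1 itself was measured at 2298, 3449, 3220 and 3339 CPM in WT replicates 1 to 4 and at 1118, 588, 1156 and 410 CPM in KO replicates 1 to 4. Every KO library was below every WT library, and none was near 0. The groups did not overlap in 7.19% of all genes. The mean fell from 3076 ± 527 CPM in WT (SD, n = 4) to 818 ± 376 CPM in KO (SD, n = 4), a log2 difference of -2.02 (SE 0.32, limma adjusted p = 0.0438). An exact two-sided permutation test gave p = 0.0286, the smallest that 4 against 4 libraries allow, or 0.0571 after adjustment over the 2 genes tested this way. The knockout label thus went with a transcript level 4.07-fold lower rather than with its loss. Whether the remaining reads cover the deleted part cannot be told from counts per gene. The call held in 5 of 20 alternatives, with adjusted p from 0.0273 to 0.742.

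Gdf10, which encodes the secreted factor BMP3b named in the title of the study, was the other gene examined singly. It stood at 9.92, 7.81, 13.5 and 17.5 CPM in WT and at 10.5, 8.45, 11.1 and 12.3 CPM in KO. The ranges overlapped, and the difference of -0.15 (SE 0.24) was smaller than the spread between libraries (limma adjusted p = 0.83, exact permutation p = 0.657).

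Under saline few genes passed the threshold for a difference between the genotypes. With 4 libraries in each group, a gene that did not pass it was not shown to be equal in both. A gene was called at a limma p under 0.05 after Benjamini-Hochberg adjustment for all 15350 genes. The 50 called genes made up 0.326% of those tested, with 29 higher in KO (0.189%) and 21 lower (0.137%). Among them, 22 of the higher and 8 of the lower genes differed at least 2-fold. In none of the 50 did a KO library lie within the WT range, so a lack of overlap adds nothing to a call. An unadjusted p under 0.05 was reached by 1960 genes, or 12.8%, of which 983 were higher and 977 lower. Of the differences over all genes 49.4% were above 0, and their median was -0.0035 on the log2 scale. This centre depends on how libraries were scaled, and was -0.04 with scaling by their totals, so it is not a result. The median absolute difference was 0.17. The number of calls depended on single libraries: leaving out KO replicate 2 gave 307 calls that included all 50, and leaving out any other library gave 8 to 21. With the skeletal muscle score of each library as a covariate 15 genes were called, all among the 50. All 50 called genes kept their direction in every alternative, and 7 were called whichever library was left out, namely Gm15459, Rnf150, Nceh1, Nabp1, Hk1, Zkscan3 and Retreg1.

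**Figure D1:**
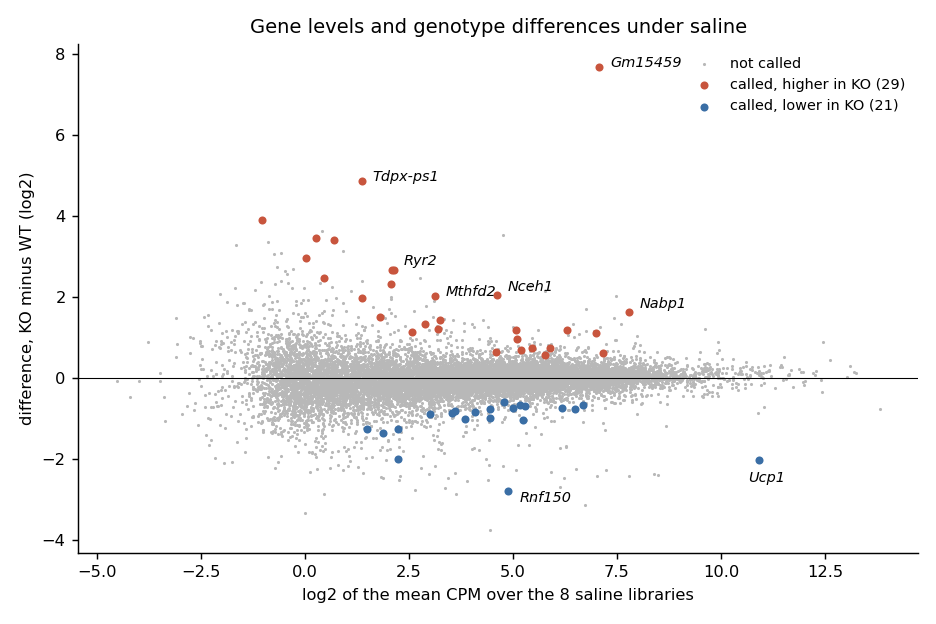
Log2 of the mean CPM over the 8 saline libraries (horizontal axis) against the KO minus WT difference on the log2 scale (vertical axis) for 15350 genes, 1 point each. Called genes are coloured (red for 29 higher in KO, blue for 21 lower), and most genes lie close to 0 at all levels above a few CPM.

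Among the called genes that were lower, the largest change was in Rnf150, a gene 3 positions from Ucp1 in the order of measured genes on chromosome 8. Rnf150 encodes a membrane protein of the RING finger family. Its level was 41.9, 65.8, 49.5 and 50.4 CPM in WT and 8.39, 10.03, 6.86 and 5.23 CPM in KO. The groups did not overlap, and the log2 difference was -2.79 (SE 0.21, limma adjusted p = 0.000375). Rnf150 was called in all 20 alternatives.

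Other genes near Ucp1 were called as well, in both directions. Scoc, encoding a small coiled-coil protein of the Golgi and of autophagy, lies 2 positions from Ucp1 and stood at 35.0, 43.9, 42.8 and 39.4 CPM in WT and 20.4, 23.0, 27.8 and 26.4 CPM in KO (log2 difference -0.73, SE 0.12, limma adjusted p = 0.0431). Usp38, encoding a deubiquitinating enzyme, lies 7 positions away on the side of Rnf150 and was higher in KO, at 45.01 to 63.5 CPM against 30.9 to 36.3 CPM in WT (log2 difference 0.74, SE 0.12, limma adjusted p = 0.0431). Ddx39, encoding an RNA helicase of mRNA export, lies 10 positions away on the side of Scoc and was also higher, at 34.7 to 53.4 CPM against 20.6 to 26.2 CPM (log2 difference 0.97, SE 0.14, limma adjusted p = 0.0278). As in every called gene, no KO library of these 3 lay within the WT range. Each of the 3 was called in 1 of the 8 fits with a library left out.

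Counted over the neighbourhood, 4 of the 50 measured genes within 25 positions of Ucp1 were called (8%), against 0.326% of all genes tested. An unadjusted p under 0.05 was reached by 16 of the 50 (32%), 9 higher and 7 lower, against 12.8% of all genes. In the next 25 genes on each side 2 of 50 were called: Mri1, for an enzyme of methionine salvage, fell by 0.83 on the log2 scale (SE 0.11, limma adjusted p = 0.0217), and the antisense gene Gm16183, named after its values were seen, rose by 1.98 (SE 0.29, limma adjusted p = 0.0295). On the rest of chromosome 8, 1 of 721 genes was called (0.139%), and on the other chromosomes 42 of 14528 (0.289%). That remaining gene of chromosome 8 was Fbxo31, also named after its values were seen, which encodes a substrate receptor of a ubiquitin ligase. It stood at 111 to 137 CPM in WT and 73.8 to 94.5 CPM in KO.

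Other close neighbours were not called. Tbc1d9, for a protein of the Rab GTPase-activating family, had 6.46 to 10.4 CPM in WT and 13.2 to 35.2 CPM in KO without overlap, yet missed the threshold (log2 difference 1.35, SE 0.31, limma adjusted p = 0.152). Elmod2 on the other side of Ucp1 had a log2 difference of -0.49 (limma adjusted p = 0.23), and Zfp330 one of -0.30 (limma adjusted p = 0.383). The complex I subunit gene Ndufb7 and the fatty acid elongation gene Tecr had differences of 0.24 and 0.09 and overlapping ranges. Il15, for a cytokine, stood at 6.46 to 12.1 CPM in WT and 2.23 to 10.8 CPM in KO, with KO replicate 2 the highest of its group. Its log2 difference was -0.96 (SE 0.46, limma adjusted p = 0.425). The low pseudogene Gm17999 and the antisense gene D830024N08Rik, both at a mean under 2 CPM, were not called either. The count of called genes within 25 positions fell from 4 to 1 without any single library other than KO replicate 2 and rose to 6 without that one.

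**Figure D2:**
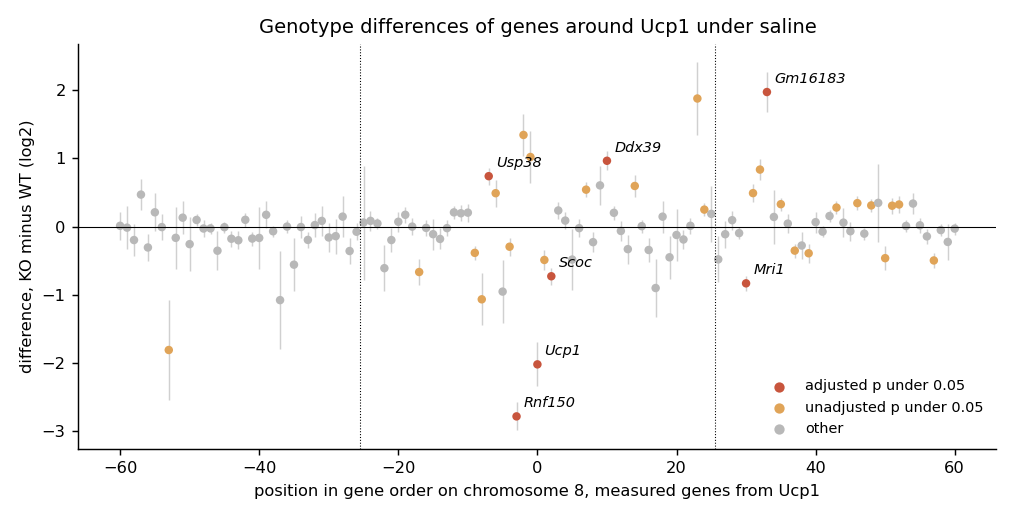
KO minus WT difference under saline (log2, vertical axis, bars are SE) of 121 measured genes of chromosome 8 in gene order, with Ucp1 at position 0 and dotted lines at 25 genes on each side. Red points were called and orange points had an unadjusted p under 0.05. Called genes lie on both sides of 0, from Rnf150 at -2.79 to Gm16183 at 1.98.

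The largest difference in the whole comparison was in Gm15459, a processed pseudogene on chromosome 5. It had 1.01, 2.12, 1.35 and 0.955 CPM in WT and 333, 180, 274 and 291 CPM in KO. All 4 KO libraries were thus far above all WT libraries, with a log2 difference of 7.67 (SE 0.27, limma adjusted p = 1.84e-06). A second processed pseudogene, Tdpx-ps1 on chromosome 1, had 4, 2, 2 and 0 reads in the WT libraries and 63, 58, 67 and 48 reads in the KO libraries. Its fitted log2 difference was 4.85 (SE 0.60, limma adjusted p = 0.0149), a value that depends on the prior count added to each gene. How the authors' counting shared reads between such copies and their parent genes is not given in the sources used here, so both are uncertain as single loci. On the Y chromosome Gm47283, named after its values were seen, was lower in KO at 1.12 to 2.43 CPM against 4.42 to 9.01 CPM in WT (log2 difference -1.99, SE 0.31, limma adjusted p = 0.0355). The other Y-linked genes listed, Ddx3y, Eif2s3y, Kdm5d and Uty, had differences of 0.12 to 0.27 and were not called. Their summed CPM was 259 to 285 in WT and 281 to 365 in KO, so Y-linked transcripts were present in every saline library.

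Among protein-coding genes with a level above a few CPM, 4 rose in every fit that left out a library. Nceh1 encodes neutral cholesterol ester hydrolase, which releases cholesterol from its esters. It had 11.3, 8.26, 7.96 and 10.5 CPM in WT and 44.1, 36.5, 39.0 and 37.5 CPM in KO, a log2 difference of 2.06 (SE 0.14, limma adjusted p = 0.000197). Nabp1 encodes a protein that binds single-stranded DNA in repair, and had 103, 104, 93.3 and 127 CPM in WT and 338, 260, 424 and 313 CPM in KO (log2 difference 1.63, SE 0.15, limma adjusted p = 0.00223). In both genes the lowest KO library was more than 2-fold above the highest WT library, and KO replicate 2 was the lowest of the KO group.

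Hk1 and Zkscan3 were the other pair. Hk1 encodes hexokinase 1, which commits glucose to glycolysis by phosphorylating it. Its level was 53.5, 49.0, 47.5 and 41.4 CPM in WT and 91.3, 124, 109 and 113 CPM in KO (log2 difference 1.19, SE 0.12, limma adjusted p = 0.00272). Zkscan3, named after its values were seen, encodes a zinc finger factor known as a repressor of autophagy and lysosome genes. Its level was 86.5, 73.3, 74.4 and 87.7 CPM in WT and 190, 197, 155 and 157 CPM in KO (log2 difference 1.12, SE 0.11, limma adjusted p = 0.00318). Here KO replicate 2 was the highest library, so it did not lie nearest to WT in every gene.

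**Figure D3:**
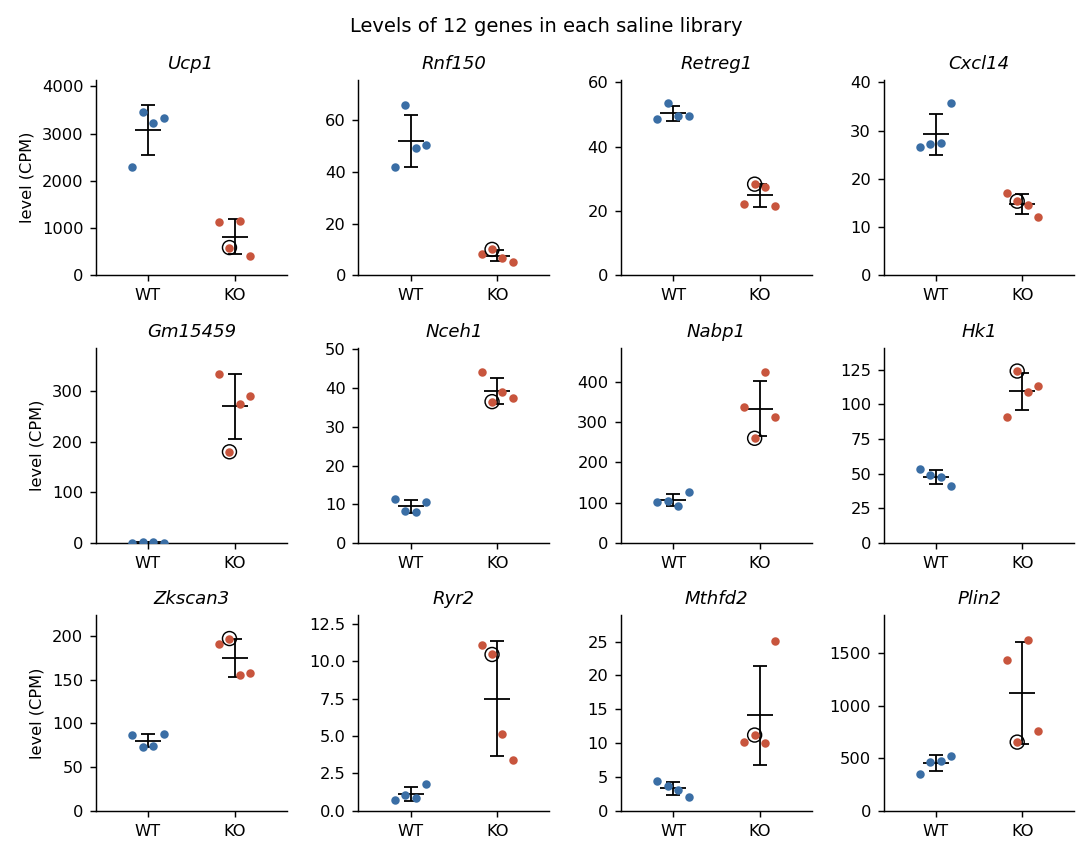
Level (CPM, vertical axis from 0) of 12 genes in each saline library, WT in blue and KO in red, with the mean and SD of 4 libraries in black and KO replicate 2 ringed. In 11 of the panels the genes were called; Plin2 was not, and its KO libraries lie at 1439 and 1627 CPM (replicates 1 and 3) and at 654 and 756 CPM (replicates 2 and 4).

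Ryr2 rose as well. It encodes the calcium release channel of the endoplasmic reticulum that is best known from heart muscle. It had 0.75, 1.04, 0.884 and 1.78 CPM in WT and 11.1, 10.4, 5.12 and 3.39 CPM in KO (log2 difference 2.67, SE 0.42, limma adjusted p = 0.0372). The skeletal muscle score, an average of centred log2 CPM, was 0.39, -3.43, 2.07 and 4.86 in WT replicates 1 to 4 and -2.95, 1.48, 1.46 and -3.88 in KO replicates 1 to 4, and its part in the Ryr2 values was not tested. Sri, named after its values were seen, encodes sorcin, a calcium-binding protein that associates with ryanodine receptors, and moved the other way. It had 81.2 to 102 CPM in WT and 50.9 to 57.6 CPM in KO (log2 difference -0.73, SE 0.10, limma adjusted p = 0.0183). Kcnk2, for a potassium leak channel, rose, with 1.53 to 2.03 CPM in WT and 4.31 to 6.69 CPM in KO (log2 difference 1.5, limma adjusted p = 0.0273). Syt9, for a synaptotagmin of calcium-triggered secretion, rose, with 0.309 to 0.677 CPM in WT and 2.14 to 2.44 CPM in KO (log2 difference 2.47, limma adjusted p = 0.0181).

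Several genes that rose were close to the limit of detection in WT. Lhx1 and Isl2 encode LIM homeodomain transcription factors, and had 1 to 3 reads in each WT library against 14 to 45 reads for Lhx1 and 10 to 28 reads for Isl2 in the KO libraries. Acot12, for a thioesterase of acetyl-CoA, had 1 to 4 reads in each WT library and 14 to 69 reads in the KO libraries. Their fitted log2 differences of 3.46, 2.96 and 3.42 passed the threshold (limma adjusted p = 0.0154, 0.0418 and 0.0274) but depend on the prior count. Wwc1, for a scaffold protein of the Hippo pathway, rose, with 0.485 to 1.95 CPM in WT and 4.87 to 10.4 CPM in KO (log2 difference 2.68, limma adjusted p = 0.0355). Dnajc22, for a J-domain protein, rose, with 0.872 to 1.76 CPM in WT and 4.54 to 8.38 CPM in KO (log2 difference 2.31, limma adjusted p = 0.0149). As in every called gene, no KO library of these 5 lay within the WT range.

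Away from chromosome 8, the gene that fell with the smallest p was Retreg1, which encodes a receptor for the autophagy of endoplasmic reticulum. Its level was 48.7, 53.7, 49.6 and 49.4 CPM in WT and 22.1, 28.4, 27.3 and 21.6 CPM in KO. The WT libraries lay close together and all KO libraries were lower (log2 difference -1.03, SE 0.11, limma adjusted p = 0.00514). Cxcl14, for a chemokine that brown fat secretes, had 26.6, 27.2, 27.4 and 35.7 CPM in WT and 17.1, 15.4, 14.6 and 12 CPM in KO (log2 difference -0.98, SE 0.14, limma adjusted p = 0.0274). Stxbp6, for a protein that binds the machinery of vesicle fusion, fell, with 17.6 to 21.4 CPM in WT and 8.16 to 10.9 CPM in KO (log2 difference -1.02, SE 0.13, limma adjusted p = 0.0181).

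Another 6 genes named by rule fell. Cdhr5, for a cadherin of epithelial microvilli, Phf24, a PHD finger gene, and Cib4, for a calcium-binding protein, fell by 1.36, 1.26 and 1.25 on the log2 scale. Gpx7, for a peroxidase of the endoplasmic reticulum, fell by 0.90, Rwdd3, for a protein that promotes SUMO conjugation, by 0.87 and Rell1, related to a tumour necrosis factor receptor, by 0.80. Their limma adjusted p ran from 0.0365 to 0.0496, so all 6 were close to the threshold. No KO library of these 6 lay within the WT range, as in every called gene.

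In the thermogenic and brown adipocyte programme Ucp1 was the only called gene. Of its 29 measured genes 20 had a difference above 0 and the median difference was 0.14, against -0.0035 over all genes. An unadjusted p under 0.05 was reached by 20.7% of them, against 12.8% of all genes. The median of this list ran from 0.09 without KO replicate 2 to 0.21 without WT replicate 2. Prdm16, a regulator of brown fat identity, had 35.0 to 48.6 CPM in WT and 56.9 to 69.1 CPM in KO without overlap (log2 difference 0.56, SE 0.12, limma adjusted p = 0.116). A further 3 genes of the programme were chosen after their values were seen, for the spread of their KO libraries. Elovl3, a fatty acid elongase that marks stimulated brown fat, had 0.75, 4.199, 4.42 and 7.26 CPM in WT and 67.2, 17.0, 99.1 and 15.7 CPM in KO. Gk, for glycerol kinase, had 68.0 to 108 CPM in WT and 368, 146, 352 and 172 CPM in KO. Dio2, for the enzyme that activates thyroid hormone, had 20.7 to 195 CPM in WT and 725, 110, 218 and 87.7 CPM in KO. In all 3 genes KO replicates 1 and 3 were the 2 highest libraries of the 8. The groups did not overlap in Elovl3 and Gk but did in Dio2, and the limma adjusted p of the 3 were 0.209, 0.143 and 0.428.

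None of the listed nuclear genes of the respiratory chain was called, and mitochondrially encoded genes were not analysed here. None of the 37 complex I genes reached even an unadjusted p under 0.05, and their median difference was 0.09, or -0.00047 without KO replicate 2. In complexes II to V 0 of 39 measured genes were called, with 1 at an unadjusted p under 0.05 (2.56%) and a median of 0.04, which ran from -0.010 without KO replicate 4 to 0.10 without WT replicate 2. The mitochondrial ribosomal proteins had 67 of 77 differences above 0 and a median of 0.10, and 0 were called, with 9 higher at an unadjusted p under 0.05 (11.7%, against 12.8% of all genes). Mrps23 and Mrps22 had the smallest p of that list, at 117 ± 6.0 against 90.1 ± 4.9 CPM and 34.3 ± 2.9 against 27.5 ± 2.3 CPM in KO against WT (SD, n = 4). Tricarboxylic acid cycle genes had 18 of 20 differences above 0, a median of 0.12, and 0 genes with an adjusted or unadjusted p under 0.05, and the median fell to 0.02 without WT replicate 1 and to 0.06 without KO replicate 2. The list of mitochondrial stress and import held 0 calls in 28, with 5 higher and 1 lower at an unadjusted p under 0.05 (21.4%). Its median was 0.07, or 0.04 without KO replicate 2. Timm9, a chaperone of the space between the mitochondrial membranes that is not in that list and was named after its values were seen, was called, with 40.4 to 47.0 CPM in WT and 58.5 to 69.9 CPM in KO (log2 difference 0.58, SE 0.09, limma adjusted p = 0.0357).

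In the list of glucose uptake and glycolysis 17 of 20 differences were above 0, the median was 0.30 and only Hk1 was called, with 8 higher at an unadjusted p under 0.05 (40%, against 12.8% of all genes). The median was 0.18 without WT replicate 1. Pgk1, for phosphoglycerate kinase, had 96.2 to 138 CPM in WT and 145 to 202 CPM in KO (limma adjusted p = 0.193). In fatty acid uptake and oxidation 28 of 30 differences were above 0, the median was 0.18 (0.12 without WT replicate 1) and 0 were called, with 2 at an unadjusted p under 0.05 (6.67%). Acot2, for a mitochondrial thioesterase, was at 47.6 ± 15 CPM in WT and 171 ± 93 CPM in KO (SD, n = 4). Lipogenesis and triglyceride synthesis had 16 of 24 differences above 0 and 0 calls, with 3 higher at an unadjusted p under 0.05 (12.5%). Its median of 0.23 fell to 0.08 without WT replicate 1 and to 0.15 without KO replicate 2. Scd1, for the desaturase that makes monounsaturated fatty acids, was named after its values were seen and had a difference of -0.76 (SE 0.34, limma adjusted p = 0.394). Lipolysis and droplet proteins had 11 of 19 differences above 0, a median of 0.11 (0.04 without WT replicate 1) and 0 calls, with 4 higher at an unadjusted p under 0.05 (21.1%). Among them Plin2, which coats lipid droplets, had 353, 468, 473 and 526 CPM in WT and 1439, 654, 1627 and 756 CPM in KO. The groups did not overlap, and the log2 difference was 1.20 (SE 0.29, limma adjusted p = 0.179). Library scores, which average the centred log2 CPM of a list's genes, did not overlap between the groups in 6 of the 40 lists. These were glycolysis, fatty acid oxidation, the integrated stress response, endoplasmic reticulum chaperones, NRF2 and antioxidant genes, and secreted factors. Groups also failed to overlap in 7.19% of all single genes, and some genes are in more than 1 list. Nothing is therefore read from the count of 6. The scores ran from -0.45 to 0.01 in WT and 0.05 to 0.32 in KO for glycolysis, and from -0.36 to 0.0048 and 0.06 to 0.20 for fatty acid oxidation. Scores of lipogenesis and of droplet proteins overlapped.

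Other routes of heat production were examined as 1 list of 21 genes, of which Ryr2 alone was called. Its median difference was -0.01 with 10 of 21 above 0, and ran from -0.05 without KO replicate 1 to 0.09 without WT replicate 3. Ucp2, a mitochondrial carrier related to Ucp1, had 101 to 169 CPM in WT and 159 to 196 CPM in KO with overlap (log2 difference 0.49, SE 0.15, limma adjusted p = 0.243). Of its genes that are also muscle markers, Ckm had a difference of -3.13 and Atp2a1 one of -2.42, neither called. With the muscle score as a covariate the median of the muscle markers went from -2.17 to -0.03. The score is made from these same genes, so that fit cannot test its part in them. In bulk tissue fewer cells of a type and less RNA per cell cannot be told apart.

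In the integrated stress response Mthfd2 was the only called gene. Cells use this programme, which the transcription factor ATF4 drives, to make amino acids, transporters and one-carbon units when mitochondria or protein synthesis are disturbed. Of its 24 measured genes 20 had a difference above 0, the median was 0.52, and 8 were higher at an unadjusted p under 0.05 (33.3%, against 12.8% of all genes). Mthfd2, for a mitochondrial enzyme of the folate cycle, had 4.37, 3.75, 3.12 and 2.03 CPM in WT and 10.2, 11.2, 9.98 and 25.1 CPM in KO. The groups did not overlap, with KO replicate 4 far above the others (log2 difference 2.03, SE 0.33, limma adjusted p = 0.0431). Atf5, a transcription factor of the mitochondrial stress response, had 80.5 to 146 CPM in WT and 199 to 425 CPM in KO, also without overlap, but missed the threshold (log2 difference 1.34, SE 0.26, limma adjusted p = 0.0969). Library scores of the list ran from -0.43 to -0.16 in WT and from 0.08 to 0.37 in KO, with KO replicate 2 the lowest of its group. Without WT replicate 3 or 4 the median of the list was 0.38, and with the muscle score as a covariate 0.33.

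Promoters of 3 members of this list, chosen after their values were seen, are printed to show the element through which ATF4 is known to act. In these genes the groups did not overlap, with 77.6 to 101 CPM in WT and 108 to 150 CPM in KO for Asns (asparagine synthetase), 60.2 to 75.1 and 78.1 to 88.8 CPM for Pck2 (mitochondrial PEP carboxykinase), and 0 to 3 reads per WT library against 4 to 35 reads per KO library for Fgf21 (a stress hormone). None of the 3 was called, with limma adjusted p of 0.146, 0.241 and 0.224. Letters TGATGNAA were searched on both strands of the RefSeq windows from 250 bases before to 50 bases after each gene start (GRCm38.p6). The match is in capitals below, and each run is on the strand of its gene.
Asns, chr6:7693210-7693269, minus strand: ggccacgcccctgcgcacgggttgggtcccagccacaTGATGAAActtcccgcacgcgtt
Fgf21, chr7:45615596-45615655, minus strand: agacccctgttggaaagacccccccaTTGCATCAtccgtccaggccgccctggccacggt
Pck2, chr14:55540137-55540196, plus strand: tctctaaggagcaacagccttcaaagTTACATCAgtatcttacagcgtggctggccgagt
The match began 23 bases before the start in Asns, where it reads as written, and 139 and 103 bases before the start in Fgf21 and Pck2, where it lies on the other strand. Of the 21 measured members with a window 9 held the letters, against 2.85% of the 11244 measured genes with a window and 3.97% of the 32851 windows of the table. The list was drawn from genes known as targets of ATF4, so this count is not independent of how it was made. The called member Mthfd2 had none in its window, nor did Atf5. Among the members that held the letters, Slc7a11, Chac1 and Vldlr had log2 differences of -0.87, -0.24 and -0.02. The others that held them, Asns, Fgf21, Pck2, Atf3, Nupr1 and Trib3, had differences above 0. A match is a description of these letters, and the data do not measure what binds there.

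Other stress programmes held no calls. The endoplasmic reticulum chaperones had 15 of 20 differences above 0, a median of 0.05 (0.02 with scaling by library totals) and 0 calls, with 3 higher and 1 lower at an unadjusted p under 0.05 (20%, against 12.8% of all genes). Their library scores ran from -0.09 to -0.0015 in WT and 0.01 to 0.08 in KO. Hspa5, the main chaperone of that compartment, had 340 to 421 CPM in WT and 458.3 to 624 CPM in KO without overlap (log2 difference 0.47, limma adjusted p = 0.186). The NRF2 and antioxidant list had 19 of 22 above 0, a median of 0.10 and 0 calls, with 6 higher at an unadjusted p under 0.05 (27.3%). Its scores ran from -0.14 to -0.04 in WT and 0.04 to 0.18 in KO. The member Srxn1, for sulfiredoxin, had 49.7 to 59.6 CPM in WT and 68.3 to 93.2 CPM in KO (log2 difference 0.53, limma adjusted p = 0.121).

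**Figure D4:**
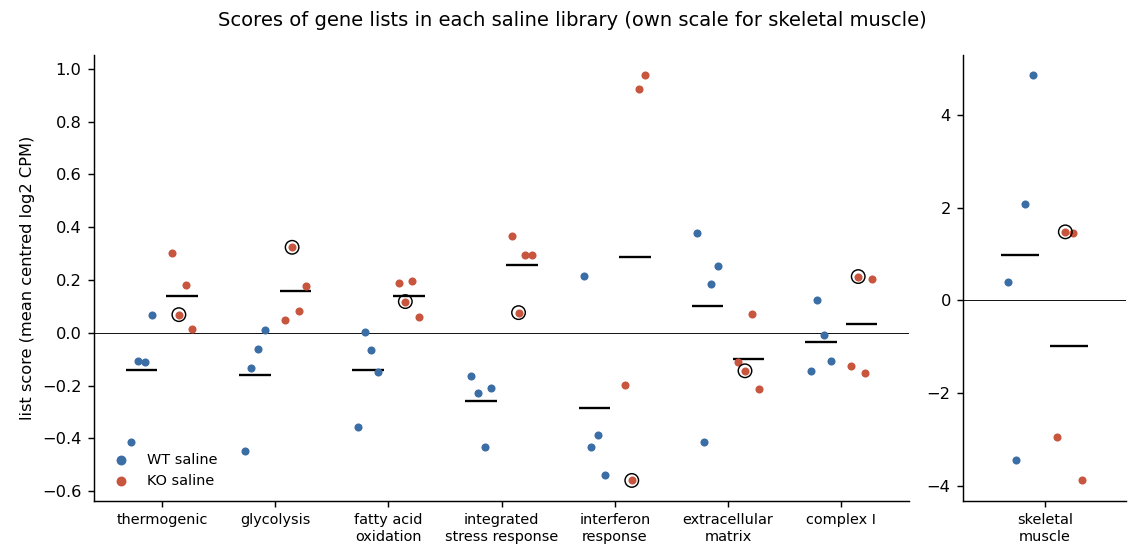
Library scores (average centred log2 CPM of a list's genes, centred over the 8 saline libraries, vertical axis) of 8 gene lists, WT in blue, KO in red, group means as black lines and KO replicate 2 ringed; skeletal muscle has its own scale. Of the lists drawn, scores of glycolysis, fatty acid oxidation and the integrated stress response do not overlap between the groups, while 2 KO libraries lead the interferon list and the others lie within or below the WT range.

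The interferon response varied widely within the KO group. All 32 measured genes had a difference above 0 and the median was 0.48, yet 0 were called and 3 reached an unadjusted p under 0.05 (9.38%). Without KO replicate 2 the median was 0.79 and 1 was called, and without KO replicate 4 the median was 0.24. Library scores were 0.92 and 0.98 in KO replicates 3 and 4, -0.20 and -0.56 in KO replicates 1 and 2, and -0.54 to 0.22 in WT. Usp18, which limits interferon signalling, showed the same split with 26.9 and 26.02 CPM in KO replicates 3 and 4, 10.2 and 7.62 CPM in the other 2 and 4.79 to 7.98 CPM in WT (log2 difference 1.44, SE 0.41, limma adjusted p = 0.226). Of the lymphocyte markers 13 of 16 had a difference above 0, their median was 0.40 and 0 were called. At an unadjusted p under 0.05, 2 were higher (12.5%, against 12.8% of all genes). Their summed CPM ran from 29.0 to 110 in WT and 41.0 to 126 in KO. Their score was 1.02 in KO replicate 3 and 0.78 in WT replicate 1, the 2 highest, and -0.06 in KO replicate 4, and their median ran from 0.20 without WT replicate 2 to 0.85 without WT replicate 1. Their part in the interferon values was not tested. Inflammatory cytokines and chemokines had 22 of 26 differences above 0 and a median of 0.37 (0.13 without KO replicate 3), and their only called member was Cxcl14, which fell.

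In the extracellular matrix list 5 of 29 differences were above 0, the median was -0.24 (-0.12 with the muscle score as a covariate, -0.42 without WT replicate 2) and 0 were called or reached an unadjusted p under 0.05. Endothelial markers had 3 of 15 above 0, a median of -0.14 (-0.08 without KO replicate 2, -0.25 without KO replicate 1) and 0 calls, with 3 at an unadjusted p under 0.05 (20%, against 12.8% of all genes). Tie1, for an endothelial receptor, had 243 to 305 CPM in WT and 164 to 231 CPM in KO (log2 difference -0.41, SE 0.12, limma adjusted p = 0.23). In the clock list Nr1d1 and Cry2 had the smallest p. Their differences were -0.42 and -0.44 without overlap, with limma adjusted p of 0.213 and 0.211. Of the 18 clock genes 10 had a difference above 0, the median was 0.06 and 0 were called. An unadjusted p under 0.05 was reached by 3 higher and 2 lower genes (27.8%, against 12.8% of all genes), so the list had no common direction. The secreted factors held 0 calls in 27, with 5 higher and 1 lower at an unadjusted p under 0.05 (22.2%). Of these 27 genes 13 had a difference above 0 and 14 below, and the median was -0.03. Their scores ran from -0.18 to -0.09 in WT and 0.0003 to 0.34 in KO. Their summed CPM was 6502 to 7498 in WT and 5059 to 7272 in KO, so the scores do not show a rise of the list as a whole. Nrg4, a brown fat hormone, had 132 to 182 CPM in WT and 222 to 287 CPM in KO (log2 difference 0.54, limma adjusted p = 0.161), and Fgf9 had 0.309 to 1.44 CPM and 3.37 to 5.62 CPM (log2 difference 2.40, limma adjusted p = 0.0632). In all, 5 of the 50 called genes belonged to any of the 40 lists, which held 795 different measured genes. That is 0.629% of the listed genes, against 0.326% of all genes.

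Several values above that missed the threshold depended on KO replicate 2. Without it 257 further genes were called, and in 112 of these its level lay within the WT range. Those 257 genes were chosen by leaving it out, so the 112 describe how that library differs and test nothing. Among named genes Plin2, Acot2, Gk, Atf5, Asns, Srxn1, Usp18 and Mrps23 were called without it and in at most 1 other of the 20 alternatives. Acot2 shows the pattern most plainly, with 199, 284 and 136 CPM in KO replicates 1, 3 and 4, 63.8 CPM in replicate 2 and 32.0 to 68.5 CPM in WT. For Ucp1 itself replicate 2 had 588 CPM, within the range of the other KO libraries, so its level of the targeted transcript did not go against its label.

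The genotypes were also compared in the 8 isoproterenol libraries, which share no sample with the saline ones. There 4639 genes were called, 30.2% of those tested, 47.0% of them higher in KO, or 65.7% when libraries were scaled by their totals. Of the 50 genes called under saline 15 were called in the same direction under isoproterenol, 2 in the opposite direction and 33 were not called. In all, 31 of the 50 had the same sign. The 17 called under both treatments are a share near the 30.2% of all genes, so their number is not a result about the 50 genes as a set. By direction, 30% of the 50 were called in the same and 4% in the opposite direction. Over all genes 14.2% were called higher in KO and 16% lower under isoproterenol. The split by direction was not tested. The values of single genes follow.

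Gm15459 had 0.706 to 3.33 CPM in WT and 305 to 437 CPM in KO under isoproterenol, a log2 difference of 7.58 beside 7.67 under saline. Nceh1 had 11.4 to 13.7 CPM in WT and 75.2 to 248 CPM in KO (log2 difference 3.27, SE 0.33, limma adjusted p = 0.00132), and its effect was larger than under saline by 1.21 (SE 0.38, limma interaction adjusted p = 0.0297). Igf2bp2, for an RNA-binding protein that regulates translation, rose under saline, with 4.05 to 6.13 CPM in WT and 9.95 to 16.8 CPM in KO (log2 difference 1.43, limma adjusted p = 0.0257). Its effect under isoproterenol was 3.16, again larger (limma interaction adjusted p = 0.00405). Mthfd2, Clmp, Tdpx-ps1, Ddx39, Usp38, Scoc, Mri1, Cdhr5, Rnf150 and Ucp1 were the other named genes called in the same direction in both treatments.

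Retreg1 and Cxcl14 were lower in KO under saline and higher in KO under isoproterenol. Under isoproterenol Retreg1 had 9.92, 9.41, 15.9 and 12.3 CPM in WT and 24.2, 47.7, 37.6 and 28.6 CPM in KO (log2 difference 1.52, SE 0.25, limma adjusted p = 0.005). The change in the genotype effect was 2.55 (SE 0.28, limma interaction adjusted p = 0.000109). Cxcl14 had 20.6 to 31.6 CPM in WT and 35.5 to 79.4 CPM in KO (log2 difference 1.02, limma adjusted p = 0.0208), a change of 2.0 in the effect (limma interaction adjusted p = 0.000984). Zkscan3 and Nabp1, which rose under saline, had differences of -0.17 and 0.33 under isoproterenol, where neither was called, and their effects differed between treatments (limma interaction adjusted p = 0.00187 and 0.0259). An interaction adjusted p under 0.05 was found for 23 of the 50 genes, 17 of which were not called under isoproterenol, and for 24.7% of all genes tested. The 50 were chosen by their saline values, which enter the interaction, so nothing is read from that count.

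**Figure D5:**
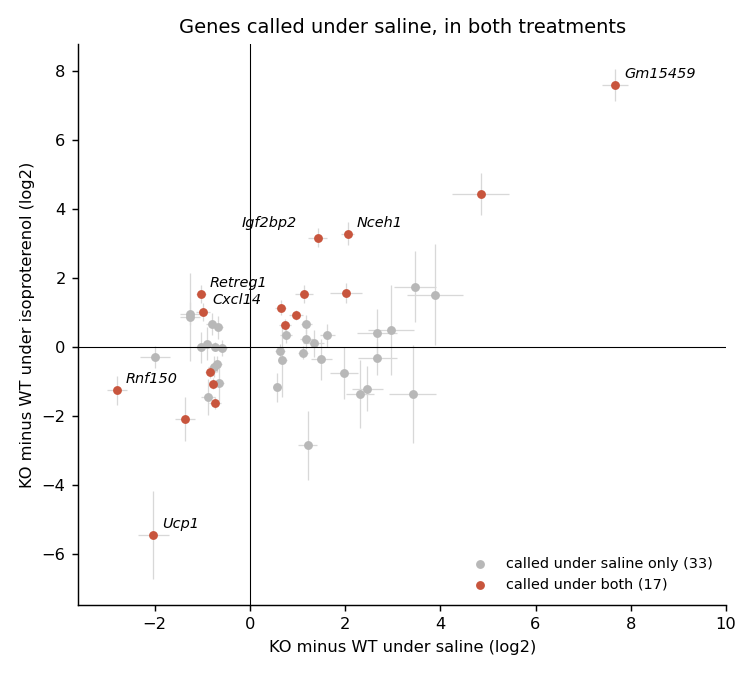
KO minus WT difference (log2) under saline (horizontal axis) and under isoproterenol (vertical axis) of the 50 genes called under saline, with bars of 1 SE in each direction. Red genes were called in both treatments (17) and grey genes under saline only (33); Retreg1 and Cxcl14 are the red points at upper left, lower in KO under saline and higher under isoproterenol.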

How the data were processed

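mRNA of 16 brown fat libraries was sequenced as single reads per the labels' protocols. The deposited values are log2 CPM per Ensembl gene, and the submitters' processing notes name STAR, limma and mm39. The sources used here do not give versions, annotation, read counter, strand setting or gene filter. Taken as a power of 2 and divided by a constant of its library, every deposited log2 value equals whole reads and a prior of 0.5. Whole reads were recovered from every value within 1e-06 and gave the depth, at which 3 reads came to 0.212 to 0.345 CPM. Printed CPM contain the prior count, and limits of depth cover counting error only.

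The deposited log2 values of the 8 saline libraries were fitted with limma 3.58.1 under R 4.3.3, with statmod 1.5.0 and trended, robust empirical Bayes moderation (6 residual degrees of freedom), after tests on simulated data. The isoproterenol contrast used its own 8 libraries and the interaction all 16. P-values were adjusted over 15350 genes by the Benjamini-Hochberg method and called under 0.05. Ucp1 and Gdf10 also had exact permutation tests over 70 arrangements. The 20 alternatives covered scaling, weights, moderation, filters, prior, replicate block, muscle covariate and libraries left out.

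Symbols, biotypes and gene order came from GENCODE M21, of another build, and matched 15320 identifiers. Promoter windows came from RefSeq. Column headers and titles number 3 KO saline libraries differently, and titles were used. Not every pair of same-numbered libraries had deviations correlated above 0.1, with either numbering, so numbers were not taken as pairs. Nnt was to be named by rule and is not analysed here. Another gene named by the rule is not reported here, though counts over lists and named genes include it.

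Named genes were Ucp1, Gdf10 and Y-linked genes, the 12 called genes with the largest difference in each direction (mean of at least 1 CPM), up to 4 called members or the 2 smallest p of each of 40 lists, neighbours of Ucp1, and genes called in both treatments. Members and lists were chosen with earlier results of these data known.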

Additional observations from a re-analysis of the deposited data

Results flagged for a closer look

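For 36 of the 88 genes examined by name the KO minus WT difference itself differed between the treatments, by the interaction term of the limma fit to all 16 libraries at an adjusted p under 0.05, which 24.7% of all genes reached. Many of the 88 were named by their saline values, which enter the interaction. Nothing is therefore read from that count or from the directions of the changes. Each value below is the log2 genotype effect under isoproterenol minus that under saline. Among genes that rose in KO under saline, the effect was lower under isoproterenol by a value of -4.77 in Acot12, -3.68 in Syt9, -3.67 in Dnajc22, -3.01 in Wwc1, -2.74 in the antisense gene Gm16183, -1.86 in Kcnk2, -1.75 in Timm9, -1.30 in Nabp1 and -1.29 in Zkscan3. It was higher under isoproterenol by 1.21 in Nceh1 and 1.74 in Igf2bp2. Among genes that fell in KO under saline, the effect moved upward by 2.55 in Retreg1, 2.22 in Phf24, 2.0 in Cxcl14, 1.69 in Gm47283, 1.53 in Rnf150, 1.46 in Rell1 and 0.74 in Sri, and downward in Scoc (-0.89).

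Other genes differed between treatments without having been called under saline. The effect was lower under isoproterenol by a value of -5.02 for Elovl3, -2.69 for Agpat2 (triglyceride synthesis), -1.91 for Ppif, -1.83 for Ndufb7, -1.77 for Nrg4, -1.76 for Asns, -1.75 for Pgk1, -1.49 for Mrps23, -1.47 for Atf5, -1.32 for Prdm16, -1.32 for Tecr and -1.18 for Mrps22. It was higher by 4.71 for the chemokine Ccl7, 1.73 for Usp18, 1.17 for Nlrc5 (a regulator of MHC class I), 1.12 for Ucp2 and 1.02 for Zfp330. The interaction adjusted p of the 36 ran from 0.000109 in Retreg1 to 0.0492 in Elovl3.

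In 17 of 256 groups of 4 saline libraries 1 library lay far from the other 3 by Dixon's criterion, where chance alone flags about 1 group in 20, or 12.8. In WT replicate 1 Ucp1 was low at 2298 CPM, Eif2s3y low at 99.8 CPM and Gpx7 high at 12.9 CPM, and the score of the circadian clock list stood apart at -0.13. In WT replicate 2 Cdhr5 was high at 6.55 CPM, and in WT replicate 3 Gm47283 was low at 4.42 CPM. In WT replicate 4 Phf24 was high at 7.76 CPM, Cxcl14 high at 35.7 CPM and Mri1 low at 18.8 CPM. In KO replicate 1 Nrg4 was high at 287 CPM and the cell cycle score low at -0.29. In KO replicate 2 Lhx1 was high at 3.79 CPM and Pck2 low at 78.1 CPM. In KO replicate 3 Eif2s3y was high at 142 CPM and the lymphocyte score high at 1.02. In KO replicate 4 Mthfd2 was high at 25.1 CPM and the pseudogene Gm17999 low at 0.747 CPM. No library gathered more than 4 of these values.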

How the results depend on the processing

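The count of 50 called genes fell to 15 when all 16 libraries shared the spread, 31 with voom precision weights, 24 without trended and robust moderation, 20 among genes of at least 5 CPM and 15 with the muscle score as a covariate, and rose to 174 with array weights. Without single libraries it ran from 8 (KO replicate 3) to 307 (KO replicate 2). With the replicate number as a block it was 11, and 45 (33 higher and 12 lower) with the numbers of the column headers, of which 29 were among the 50. Deviations of same-numbered libraries correlated at -0.43 to 0.03 with the titles' numbers, by which 0 WT libraries correlated best with their own number. With the headers' numbers the correlation was 0.19, 0.31 and 0.33 for numbers 1 to 3 and -0.43 for number 4.

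Called neighbours within 25 genes of Ucp1 numbered 2 instead of 4 with all 16 libraries, with scaling by totals, with voom weights and at 5 CPM, and 1 with the block of the titles' numbers, without trended moderation and with the muscle score. Without single libraries they numbered 1 to 6. Ucp1 lost its call at an unchanged difference of -2.02 with all 16 libraries, without trended moderation, at 5 CPM and with either replicate block (adjusted p = 0.235 and 0.128). It did so too at -2.06 with scaling by totals, -2.04 with voom weights and -1.96 with the muscle score, and its difference ran from -2.23 to -1.74 without single libraries, where it kept its call only without KO replicate 2. The cause of these changes was not tested. Gdf10 ran from -0.34 to 0.050 without single libraries and turned its sign without WT replicate 4, but was never called.

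For the other named genes 1697 alternatives were run: 1359 left the call as it was, 313 ended it, 25 made one and 0 turned the direction. Of 798 alternative list medians 8 moved beyond the spread between libraries. Counts under isoproterenol ran from 2411 to 6070 without single libraries. They were 2698 without WT isoproterenol replicate 1 and 2566 without replicate 3, and scaling by totals raised the share of higher calls from 47.0% to 65.7%.

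With 4 libraries a group, an exact permutation test of single values cannot go below p = 0.0286. Genes of a few reads, below the 0.345 CPM that 3 reads are worth in the shallowest library, are limited by depth. Scaling by totals shifted the median of all genes to -0.04 and no other setting moved it by more.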
